A study of Mus musculus with 4 samples.

Results

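The heavy and kappa V genes of liver B cells were read in 4 single-cell RNA libraries. The set held every gene of the reference whose symbol begins with Ighv or Igkv and that had at least 1 UMI (a counted RNA molecule) in any library, apart from Ighv11-2, Ighv12-3, Igkv14-126 and Igkv4-91, 4 V genes used by B-1 cells that were set aside. This left 254 of 33696 features, 123 heavy and 131 kappa. The heavy V genes lay on chromosome 12 and comprised 103 annotated as functional and 20 annotated as pseudogenes, and the kappa V genes lay on chromosome 6 and comprised 94 and 37.

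Each B cell builds its receptor by joining 1 V segment to short downstream segments on the heavy chain locus and again on a light chain locus, kappa or lambda. The RAG recombinase cuts beside a recombination signal that follows each V segment, a heptamer and a nonamer held apart by a spacer. The kappa locus usually rearranges before the lambda loci, so a lambda cell can carry earlier kappa rearrangements that are still transcribed. Naive follicular B cells are known for a broad choice of V genes, whereas B-1 cells, an innate-like type abundant in the body cavities, are known for recurrent ones.

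All mice were male C57BL/6J, were 7 weeks old at the start and were fed the FPC diet, a steatohepatitis model rich in trans-fat, fructose, palmitate and cholesterol. P-LC24 and P-HC24 were sampled by fine-needle aspiration of the liver after 24 weeks on 0.05% and 1.25% cholesterol. I-LC32 had 0.05% for all 32 weeks, and I-HC32 had 1.25% for 24 weeks and then 0.05% for 8 weeks. Each library pooled 12 biopsies from 3 mice, and the same mice of a diet group were sampled at both weeks, so there was 1 library per condition and no test between conditions was possible. P-HC24 over P-LC24 is called Prog and I-HC32 over I-LC32 is called Int. Where 4 values stand together, P-LC24 comes first, then P-HC24, then I-LC32, and I-HC32 last.

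The matrices held between 50941106 and 89257239 UMIs per library. After limits on UMIs, genes and mitochondrial share and removal of doublets, 4930, 6532, 6978 and 6919 cells were kept in the respective libraries, of which 3272, 4701, 4916 and 5120 had a UMI of Cd79a, a B cell receptor signalling chain. Between 12 and 31 kept barcodes were shared by any pair of libraries. Immunoglobulin genes took no part in the clustering. The naive B-like type took clusters 1, 2 and 8, each with 7 of 7 naive follicular markers detected, and the B-1-like type took clusters 0 and 12, with 10 and 9 of the 12 B-1 markers. Clusters 0 and 12 also held 6 and 5 of the 7 naive follicular markers, and the naive B-like clusters 3 or 4 of the 12 B-1 markers. A further cluster with B cell markers was led by haemoglobin genes and stayed unnamed. Naive B-like cells numbered 2368, 2602, 2716 and 2241, and B-1-like cells 668, 1724, 1764 and 2455. Cluster 12 gave 106 of these B-1-like cells in P-HC24, 138 in I-HC32 and none in the low cholesterol libraries, where its 3 and 9 cells had no UMI of Cd79a.

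The recombination signals of the V genes on which the results turn are shown with the last 6 bases of the V segment in front of them, since they lie where these segments are cut. Sequences run 5′ to 3′ on the strand of the gene, taken from the GRCm39 genome of the reference, and capitals mark the heptamer and the nonamer.
Ighv3-6, chr12:114251733-114251777, minus strand: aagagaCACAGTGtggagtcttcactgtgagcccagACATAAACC
Ighv1-26, chr12:114751954-114751997, minus strand: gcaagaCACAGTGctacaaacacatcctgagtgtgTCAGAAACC
Ighv8-5, chr12:115031141-115031185, minus strand: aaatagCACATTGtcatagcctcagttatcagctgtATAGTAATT
Igkv1-117, chr6:68098806-68098839, plus strand: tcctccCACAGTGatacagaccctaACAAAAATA
Igkv2-109, chr6:68280137-68280170, plus strand: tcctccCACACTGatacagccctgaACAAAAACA
Igkv6-29, chr6:70115418-70115451, minus strand: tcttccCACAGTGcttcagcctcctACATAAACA
Igkv8-28, chr6:70120549-70120582, minus strand: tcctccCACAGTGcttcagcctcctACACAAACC

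By mean share over the 4 libraries, Ighv3-6 and Ighv1-26 led among heavy V genes in naive B-like cells. Among kappa V genes, Igkv1-117 led in naive B-like cells and Igkv2-109 in B-1-like cells. In B-1-like cells of I-LC32, Ighv8-5 and Igkv6-29 led and Igkv8-28 held rank 2 among kappa V genes. Heptamers were compared with CACAGTG and nonamers with the consensus recombination nonamer, with a spacer of 23 bases in heavy and 12 bases in kappa genes, allowing 1 base either way. The heptamer of Ighv8-5 differed from the consensus at 1 base and its best nonamer at 5, whereas Ighv3-6 had 0 and 1 differences. The 12-base spacers of Igkv6-29 and Igkv8-28 were the same letter for letter. Of the functional members, 79 of 103 heavy and 83 of 94 kappa genes had the exact heptamer, against 13 of 20 and 17 of 37 of those annotated as pseudogenes. No signal was found in the short stretch searched around the annotated end of Igkv2-107, a kappa gene annotated as a pseudogene. Bases further on were not searched, so a signal there would have been missed.

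The last coding exons of these 3 V genes of I-LC32 show where they share sequence with other V genes. At most the last 300 bases are printed, of 312 in Ighv8-5 and 305 in Igkv8-28. Capitals mark bases that lie in no 50-base word shared with another V gene, on GRCm39. A base in small letters can also lie in words that are not shared.
Ighv8-5, chr12:115031180-115031479, minus strand: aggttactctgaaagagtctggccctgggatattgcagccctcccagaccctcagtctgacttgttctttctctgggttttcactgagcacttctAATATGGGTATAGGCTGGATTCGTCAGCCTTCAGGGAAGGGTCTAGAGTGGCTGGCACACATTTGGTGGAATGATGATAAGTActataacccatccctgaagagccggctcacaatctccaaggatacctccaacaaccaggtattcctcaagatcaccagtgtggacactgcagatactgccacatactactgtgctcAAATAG
Igkv6-29, chr6:70115446-70115743, minus strand: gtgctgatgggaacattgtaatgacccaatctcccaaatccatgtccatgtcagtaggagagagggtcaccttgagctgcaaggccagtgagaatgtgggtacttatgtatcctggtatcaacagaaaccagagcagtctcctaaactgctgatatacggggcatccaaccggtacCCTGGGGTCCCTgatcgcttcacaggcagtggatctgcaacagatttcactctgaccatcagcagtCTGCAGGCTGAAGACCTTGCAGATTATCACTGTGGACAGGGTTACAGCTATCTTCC
Igkv8-28, chr6:70120577-70120876, minus strand: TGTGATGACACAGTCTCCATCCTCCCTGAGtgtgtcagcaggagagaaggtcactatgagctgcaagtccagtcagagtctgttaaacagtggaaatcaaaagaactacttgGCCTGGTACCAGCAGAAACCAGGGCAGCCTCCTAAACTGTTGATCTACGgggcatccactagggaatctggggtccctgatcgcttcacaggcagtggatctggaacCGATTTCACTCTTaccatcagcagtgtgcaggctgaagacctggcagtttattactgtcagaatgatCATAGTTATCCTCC

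Over the spliced gene, Igkv6-29 shared 64.1% of its 50-base words with Igkv6-20, its close relative, and Ighv8-5 shared 23.9% with Ighv8-8. Igkv8-28 shared 16.4% with Igkv8-19, Igkv1-117 shared 49.9% with Igkv1-110, and Igkv2-107 shared none with any V gene. How the counting treated reads that fit more than 1 V gene was not given in the sources used here, so values of close relatives are uncertain to that extent.

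V gene RNA was sparse. Members gave 4539 heavy and 11930 kappa UMIs in Cd79a cells of the 4 libraries, and 78 heavy and 86 kappa members had a UMI in each library. The kit counts the 3′ end of an RNA and the V segment lies at the 5′ end. Detection shares count members alone, so a cell read only for 1 of the 4 genes set aside counts as without a V gene. A heavy V gene was read in 33.4%, 20.8%, 17.2% and 16.6% of naive B-like cells, and in 25.4%, 18.9%, 19.6% and 15.0% of B-1-like cells. For kappa V genes the shares were 45.2%, 34.4%, 24.3% and 32.7% in naive B-like cells and 56.7%, 46.0%, 51.1% and 44.4% in B-1-like cells. T cells without Cd79a, which should lack both, gave 0.104% to 0.141% for heavy and 0.211% to 0.851% for kappa V genes at median depths between 6160.5 and 8157 UMIs. Median depth was 4900 to 5652 UMIs in naive B-like and 11827 to 11967 in B-1-like cells. With each cell thinned to 2000 UMIs, the order of the types turned for kappa V genes in 3 libraries, at 22.2%, 15.8%, 10.2% and 12.9% in naive B-like and 19.6%, 11.9%, 14.4% and 10.3% in B-1-like cells. I-LC32 was the library in which the thinned share stayed higher in B-1-like cells. Thinned heavy shares were 14.6%, 8.88%, 6.99% and 5.78% in naive B-like and 7.003%, 3.99%, 3.76% and 2.74% in B-1-like cells.

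Naive B-like cells spread over many V genes, and no gene held more than 6.42% of the cells given to a heavy V gene or 7.92% of those given to a kappa V gene in any library. Each cell was given to the V gene with the most UMIs. Ighv3-6 was the leading heavy gene of 32, 17, 20 and 23 of 766, 529, 455 and 358 cells, and Ighv1-26 of 33, 27, 22 and 13. These were the highest mean shares, 4.55% ± 1.35 (SD, n = 4) and 4.47% ± 0.65. They were followed by Ighv9-3 at 3.24% ± 0.39, Ighv1-82 at 3.08% ± 0.24 and Ighv6-3 at 3.07% ± 0.67, and the neighbours in this order did not differ beyond their spread. Among kappa V genes, Igkv1-117 led 65, 58, 48 and 53 of 978, 838, 606 and 680 cells, a mean share of 7.32% ± 0.63. Igkv1-110 followed at 6.58% ± 1.66, Igkv17-121 at 5.66% ± 1.09, Igkv12-44 at 4.88% ± 0.99 and Igkv17-127 at 3.82% ± 0.69. Igkv1-110 had its lowest share in P-LC24, with 41 cells, and led in P-HC24, with 66.

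B-1-like cells shared part of this order and departed from it in every library, with further V genes leading in I-LC32. Igkv2-109 led 31, 75, 93 and 74 of 321, 628, 713 and 854 B-1-like cells, the highest kappa mean share at 10.8% ± 2.02 (SD, n = 4). Igkv1-110 followed with 20, 64, 52 and 89 cells, a mean of 8.53% ± 2.09, and the pseudogene Igkv2-107 with 18, 32, 64 and 80 cells, a mean of 7.26% ± 2.22. Igkv1-117 had 5.45% ± 1.79. These kappa genes were present in all 4 libraries. By contrast Igkv6-29 led 0, 7, 136 and 7 cells, and its 19.1% (16.3–22.2, exact Clopper-Pearson 95% interval, counting error only) in I-LC32 made up nearly all of its mean of 5.25%. Igkv8-28 led 7, 6, 104 and 9 cells. Its share in I-LC32 was 14.6% (12.1–17.4). The 0 of 321 cells for Igkv6-29 in P-LC24 has an upper limit of 3 cells.

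The heavy V genes of B-1-like cells showed the same split between libraries. Ighv8-5 was the leading heavy V gene of 2, 1, 147 and 2 of 161, 312, 336 and 347 B-1-like cells, which is 43.8% (38.4–49.2) in I-LC32. In naive B-like cells it led 3, 2, 3 and 5 cells. Ighv6-3 led 11, 18, 15 and 17 B-1-like cells, a mean of 5.49% ± 1.05 (SD, n = 4). Ighv1-47 led 12, 16, 4 and 15, a mean of 4.52% ± 2.59. Ighv3-6 had 4.47% ± 1.63 and Ighv1-55 had 3.73% ± 0.53. Without Ighv8-5, the heavy genes of B-1-like cells were thus led by Ighv1-47, Ighv6-3 or Ighv3-6, with 4.90% to 7.45% for those at the top 2 places of P-LC24, P-HC24 and I-HC32.

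**Figure D1:**
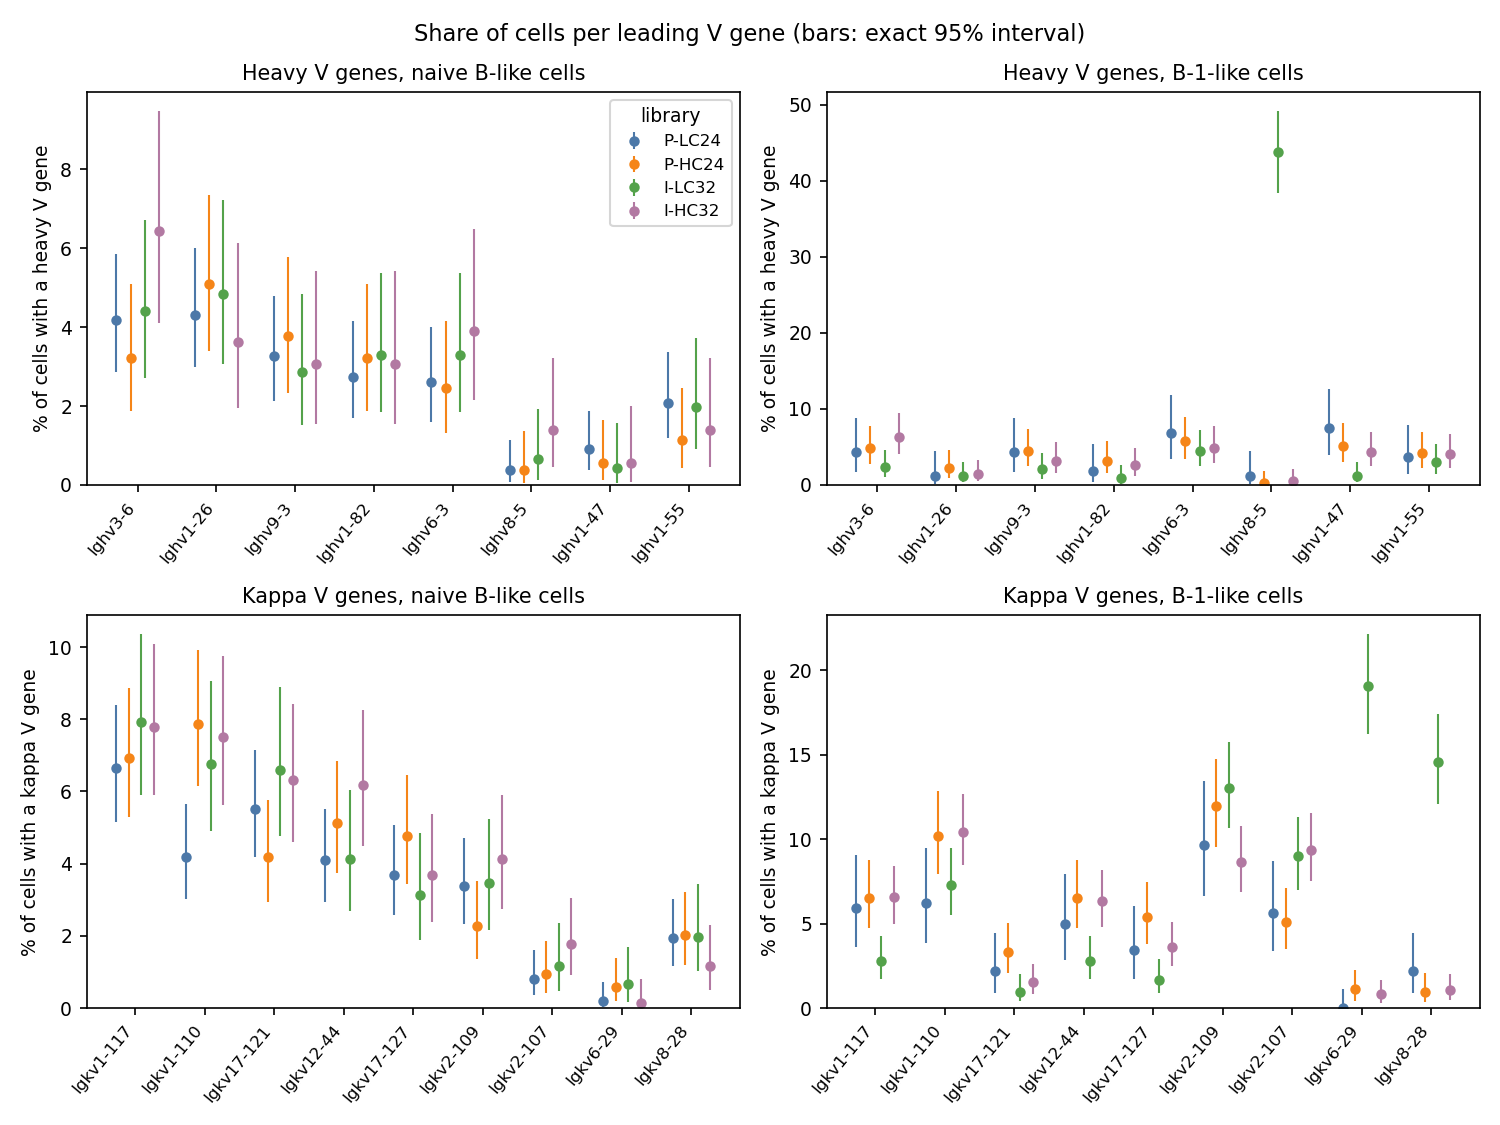
Each panel plots, for 1 chain and cell type, the percent of cells given to each leading V gene on the vertical axis, with points for the 4 libraries and bars for exact 95% intervals (counting error only). In B-1-like cells Ighv8-5 reached 43.8%, Igkv6-29 19.1% and Igkv8-28 14.6% in I-LC32 only, while Igkv2-109 and Igkv2-107 were raised over their naive B-like shares in all 4 libraries.

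Families, groups of V genes with related sequence, moved with these genes. Ighv1, the largest heavy family with 63 members, held 55.9%, 56.7%, 55.2% and 48.9% of naive B-like and 40.4%, 44.9%, 24.1% and 50.4% of B-1-like cells. Ighv8, with 8 members, held 45.2% (39.8–50.7) of B-1-like cells in I-LC32 and 2.48%, 3.85% and 4.32% in P-LC24, P-HC24 and I-HC32. Igkv2, also with 8 members, held 16.8%, 18.0%, 23.001% and 19.0% of B-1-like cells against 5.42%, 4.42%, 6.27% and 6.62% of naive B-like cells. The ranges of the types did not overlap for Igkv2.

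Diversity was counted as the effective number of V genes, the inverse of the chance that a pair of cells shares its V gene. For heavy V genes it was 55.2, 50.4, 52.4 and 52.0 in naive B-like cells. In B-1-like cells it was 41.8 (32.3–59.3, 95% interval), 44.2 (37.6–53.7), 5.05 (4.12–6.52) and 46.2 (39.4–55.9). I-LC32 stood apart from the other 3 libraries, whose intervals overlapped each other and those of naive B-like cells. For kappa V genes the naive B-like values were 37.5, 33.7, 33.4 and 31.2. The B-1-like values were 28.9 (24.6–34.9), 21.2 (18.8–24.5), 10.9 (9.81–12.3) and 21.3 (19.3–23.8), and all 4 lay below every naive B-like value, though the interval of P-LC24 overlapped the naive B-like ones. In samples of 160 cells, 59.8, 60.2, 45.7 and 61.3 heavy V genes would be seen in B-1-like cells and 62.9, 61.3, 62.9 and 62.9 in naive B-like cells. The corresponding kappa values were 47.6, 46.6, 36.6 and 44.3 in B-1-like and 52.7, 52.7, 50.5 and 51.2 in naive B-like cells.

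This comparison rested on the 4 genes set aside. With them kept in, the heavy effective number of B-1-like cells was 8.40, 13.6, 6.17 and 10.6 and the kappa one 13.1, 13.8, 11.2 and 13.7, so that I-LC32 was still lowest but by far less. Without lambda cells that had a UMI of Mcc, a setting chosen after seeing the data, I-LC32 had 40.2 for heavy and 18.7 for kappa V genes. In kappa cells alone it had 37.1 and 19.97. The lambda B-1-like cells of I-LC32, of which 188 had a leading heavy V gene, had an effective number of 1.64 (1.42–1.92).

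**Figure D2:**
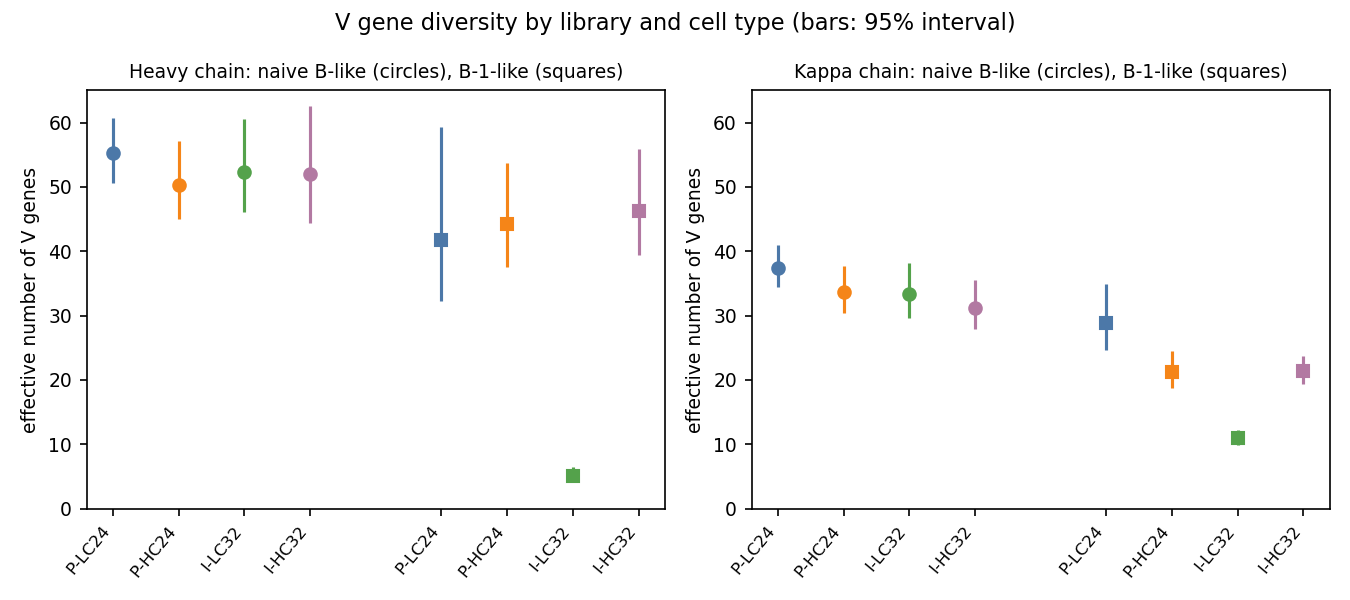
The vertical axis gives the effective number of heavy (left) and kappa (right) V genes for each library, with circles for naive B-like and squares for B-1-like cells and bars for 95% intervals that cover counting error only. B-1-like cells of I-LC32 lie at 5.05 and 10.9, below the other 3 libraries in each panel.

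Lambda cells, with more lambda than kappa constant region UMIs, were 14.7%, 9.92%, 38.9% and 10.3% of B-1-like cells. They were split by a UMI of Mcc, a gene outside the immunoglobulin loci that had been seen in earlier results of these data to mark lambda B-1-like cells of I-LC32. This gave 14, 27, 530 and 17 lambda cells with Mcc. In I-LC32, 138 of the 151 of them with a leading heavy V gene had Ighv8-5, or 91.4% (85.7–95.3). Over all lambda B-1-like cells with Mcc, a UMI of Ighv8-5 was read in 141 of 530 in I-LC32. In P-LC24, P-HC24 and I-HC32 it was read in 1 of 14, 1 of 27 and 0 of 17. Only 3, 12 and 3 of these cells had a leading heavy V gene, and in P-LC24 Ighv8-5 led 1 of the 3. Among lambda cells without Mcc, 9 of the 37 with a leading heavy V gene had Ighv8-5 in I-LC32, while Ighv9-3 led in P-LC24 with 4 of 31, in P-HC24 with 4 of 38 and in I-HC32 with 9 of 49. Kappa cells had no UMI of Ighv8-5 in 570, 1551, 1072 and 2203 B-1-like cells, so that the share of cells with such a UMI could reach 0.526%, 0.193%, 0.280% and 0.136%. This does not limit the share of cells that use the gene, since most cells had no heavy V gene UMI. Lambda cells of naive B-like type showed no such lead, with Ighv1-26, Ighv1-80, Ighv10-1 and Ighv1-53 leading 4 of 53, 5 of 32, 2 of 24 and 3 of 13 of those without Mcc.

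The kappa V genes of these lambda cells were less uneven than the heavy ones, with Igkv6-29 leading 119 of the 308 cells given to a kappa V gene. A kappa V gene was read in 73.2% of lambda B-1-like cells with Mcc in I-LC32, above the 41.6% of its kappa B-1-like cells, at median depths of 12774.5 and 11742.5 UMIs. In the other libraries 28.6%, 33.3% and 35.3% of lambda cells with Mcc had one, of few cells. Of the 530 cells in I-LC32, 180 had Igkv6-29 and 172 had Igkv8-28. Both were read in 68 cells, where the product of their shares gives 58.4, and either in 284, or 53.6%. The genes stood 4482 bases apart on the minus strand of chromosome 6. Igkv2-109 was read in 110 of the 530 cells, Igkv2-107 in 50 and Igkv1-110 in 48. Igkv2-109 and Igkv6-29 were read together in 56 cells, where the product gives 37.4. Igkv6-20, the close relative of Igkv6-29, was read in 1. The lambda V gene Iglv1 was read in 236.

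Kappa B-1-like cells gave a different picture of the same genes. Igkv6-29 was read in 1, 9, 13 and 12 and Igkv8-28 in 7, 7, 8 and 16 of the kappa cells of the 4 libraries, under 1.3% in each. Igkv2-109 was read in 11.1%, 8.64%, 8.58% and 6.31% of them and Igkv2-107 in 5.61%, 4.71%, 6.25% and 6.81%. The Igkv2 genes were thus present in kappa and lambda cells of every library, and Igkv6-29 and Igkv8-28 mostly in lambda cells of I-LC32.

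**Figure D3:**
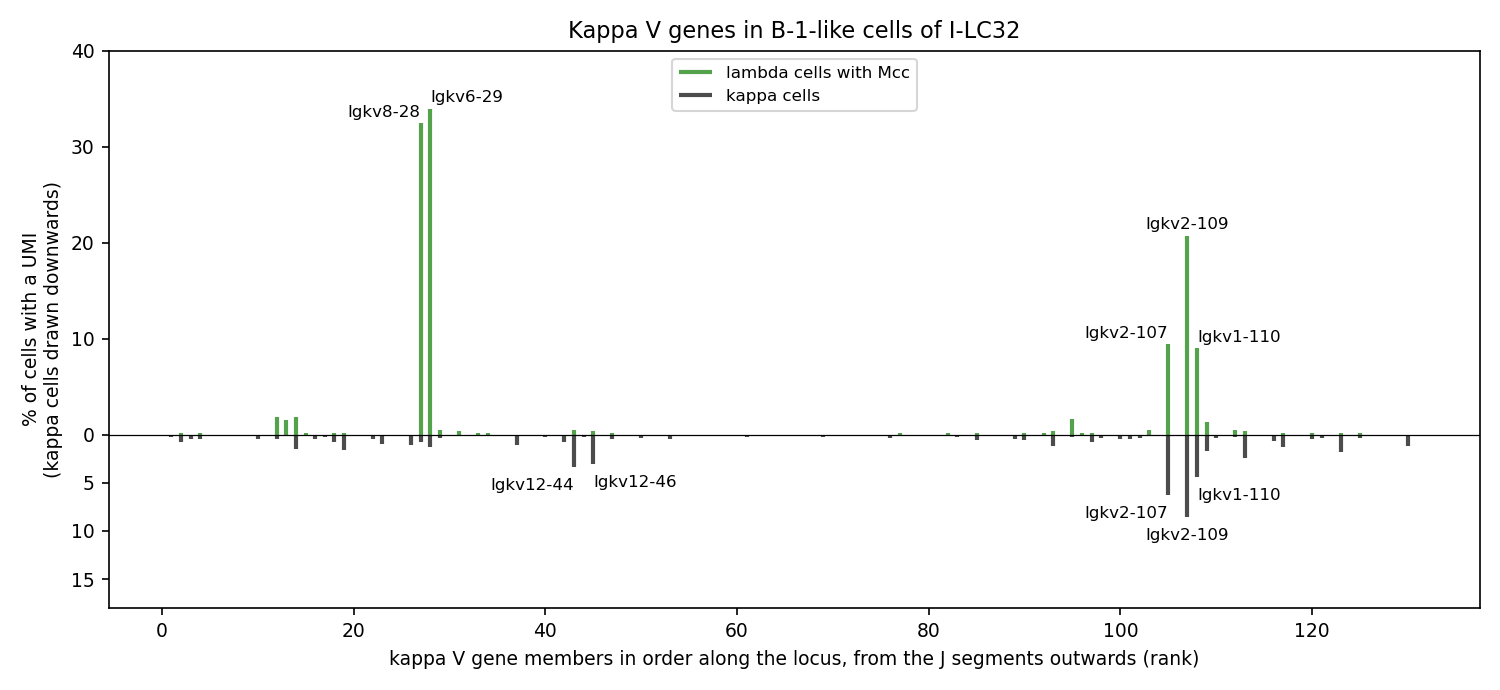
The horizontal axis ranks the kappa V members along the locus outwards from the J segments, and the vertical axis gives the percent of B-1-like cells of I-LC32 with a UMI, lambda cells with Mcc upwards and kappa cells downwards. The neighbours Igkv8-28 and Igkv6-29 stand at 32.5% and 34.0% in the lambda cells and at 0.746% and 1.21% in the kappa cells.

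Across all cells with Cd79a, a UMI of Ighv8-5 was found in 6, 3, 158 and 7 cells. Of the 158 in I-LC32, 150 were B-1-like, 157 were lambda cells, 147 had Mcc and 84 had Igkv6-29 or Igkv8-28. Another heavy V gene was read in 3 of them. Of the 6 in P-LC24, 3 were lambda cells, 2 had Mcc and 2 had Igkv6-29 or Igkv8-28. The week 24 and week 32 low cholesterol libraries came from the same 3 mice, and which mouse a cell came from cannot be told apart.

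Pairs of a leading heavy and a leading kappa V gene were read in 315, 196, 113 and 132 naive B-like and 87, 141, 166 and 150 B-1-like cells. In naive B-like cells nearly all pairs were seen once. The most frequent were Ighv3-6 with Igkv1-117, in 4 cells of P-LC24, and Ighv1-26 with Igkv1-117 and Ighv1-64 with Igkv12-44, in 3 cells each of P-HC24. In B-1-like cells of I-LC32, Ighv8-5 was paired with Igkv6-29 in 41 of 166 cells, with Igkv2-109 in 14, with Igkv8-28 in 14 and with Igkv2-107 in 4. The product of the shares gives 20.7, 11.9, 7.90 and 3.95 cells, and every one of these cells was a lambda cell. Ighv8-5 with Igkv1-110 lay below its product, at 2 cells where the product gives 5.43. The shares were taken over kappa and lambda cells together, while Ighv8-5 had no UMI in kappa B-1-like cells. A product within lambda cells alone was not counted, so these values do not show a preferred pairing. Outside I-LC32 no pair was seen in more than 3 B-1-like cells, with Ighv1-47 and Igkv1-110 reaching 3 in P-HC24 and Ighv1-47 and Igkv2-109 reaching 3 in I-HC32.

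Cells with UMIs of at least 2 kappa V genes were 10.4% to 14.8% of naive B-like and 30.3% to 37.6% of B-1-like cells with a kappa V gene. Of B-1-like cells with Igkv2-109, 61.8%, 50.3%, 63.9% and 53.2% had another kappa V gene, against 29.3%, 41.4%, 26.9% and 26.3% in naive B-like cells. For Igkv2-107 the shares were 56.8%, 63.4%, 56.3% and 61.0% against 50%, 42.9%, 58.8% and 55.6%, where the types overlapped. Igkv1-117 had another kappa V gene in 34.6%, 37.5%, 34.5% and 35.1% of its B-1-like cells. B-1-like cells were also deeper, and the part of depth was not tested.

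The same libraries served as replicates for the comparison of the cell types. UMIs were summed per library and type and tested with edgeR's quasi-likelihood test with library as a term, adjusted by Benjamini-Hochberg over all 12944 genes tested. The clusters that define the types were made without immunoglobulin genes. Of the members, 37 passed the filter on low sums and 217 did not (113 heavy, 104 kappa). Since libraries of a diet group came from the same mice, the 4 libraries stand for 2 sets of mice. In bulk sums such as these, fewer cells with a V gene and less of its RNA per cell cannot be told apart.

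Of the 10 heavy V genes tested, none was higher in B-1-like cells and 9 were lower (57.2% of all genes differed in either direction, 29.6% higher and 27.5% lower). The filter keeps a gene that is high in 1 type alone, so these counts cover only genes with enough UMIs. With no filter, 2 of 116 heavy V genes were higher, Ighv1-47 at 1.66 and Ighv8-5 at 2.62, and 26 were lower. The share of all genes called without the filter was not counted. Ighv1-26 had 3.09, 2.17, 1.56 and 0.874 CPM in naive B-like cells and 0.364, 0.349, 0.217 and 0.2003 in B-1-like cells, a log2 ratio of −2.43 ± 0.28 (SE, n = 4 libraries, edgeR adjusted p = 0.000106). Every naive B-like value lay above every B-1-like value. Ighv5-4 had −2.47 ± 0.46 (edgeR adjusted p = 0.00181), Ighv1-18 −2.38 ± 0.38, Ighv1-9 −2.30 ± 0.43 and Ighv1-64 −1.81 ± 0.40, all lower in 4 of 4 libraries. Ighv5-17, Ighv1-82 and Ighv9-3 had −1.70, −1.37 and −1.24. Ighv3-6 had −0.92 ± 0.27 (edgeR adjusted p = 0.0184), with 0.0630 without P-LC24 and 0.0685 without I-LC32. Ighv6-3 had −0.34 ± 0.27 (edgeR adjusted p = 0.309).

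The total of heavy V gene UMIs over the members, without Ighv11-2 and Ighv12-3, moved in the same direction. It was 79.4, 46.7, 37.8 and 29.8 CPM in naive B-like and 33.5, 18.9, 19.2 and 13.7 CPM in B-1-like cells. Heavy constant region UMIs were 2964, 2353, 2520 and 2522 CPM against 3813, 3360, 3824 and 3672. With V gene UMIs as the library size, 5 heavy V genes were lower and 1 was higher, Ighv6-3 at 0.63 ± 0.29 (edgeR adjusted p = 0.0472). The adjustment ran over all genes on this scale, which raises every ratio because heavy V gene UMIs were lower in B-1-like cells. The adjusted p is therefore a weak correction for the V genes, and the share of all genes called was not counted. On that scale Ighv3-6 turned to 0.06 (edgeR adjusted p = 0.851), and Ighv1-26, Ighv5-4, Ighv1-18, Ighv1-9 and Ighv1-64 were still lower, at −1.46, −1.51, −1.42, −1.34 and −0.84.

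Of the 27 kappa V genes tested, 4 were higher and 12 lower in B-1-like cells and 11 did not pass the threshold, against 57.2% of all genes called in either direction. Igkv2-107 had 1.21, 0.982, 1.10 and 1.82 CPM in naive B-like and 4.98, 3.76, 6.46 and 5.67 in B-1-like cells, a log2 ratio of 2.20 ± 0.19 (edgeR adjusted p = 1.92e-05). All 4 libraries showed the increase and the ranges did not overlap. Igkv2-109 had 5.05, 2.59, 2.07 and 2.69 CPM in naive B-like and 9.83, 7.47, 11.6 and 4.75 in B-1-like cells, a log2 ratio of 1.63 ± 0.24 (edgeR adjusted p = 0.000458). It was higher within each library, though the ranges overlapped. Igkv12-89 had 1.45 ± 0.32 (edgeR adjusted p = 0.00434) and was higher in 3 of 4 libraries, with 0.564 CPM in B-1-like and 0.778 in naive B-like cells of I-LC32. Igkv14-111 had 0.60 ± 0.22 (edgeR adjusted p = 0.0424), and missed the threshold without any 1 library, with p between 0.0516 and 0.145.

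The lower kappa V genes were led by Igkv3-4 at −2.07 ± 0.27 (edgeR adjusted p = 0.000242), Igkv6-17 at −1.95 ± 0.35, Igkv10-96 at −1.84 ± 0.24, Igkv17-121 at −1.75 ± 0.19 and Igkv6-23 at −1.65 ± 0.29. Each was lower in 4 of 4 libraries without overlap. Igkv17-121 had 9.57, 4.49, 3.76 and 4.64 CPM in naive B-like cells and 2.79, 1.53, 0.954 and 0.858 in B-1-like cells. The leading naive gene Igkv1-117 was lower as well, at −0.90 ± 0.16 (edgeR adjusted p = 0.00117). Igkv17-127 had −0.46 ± 0.16 (edgeR adjusted p = 0.0361), which passed the threshold without I-LC32 and missed it without any 1 of the others. Igkv1-110, at 0.22 ± 0.14, and Igkv12-44, at 0.13 ± 0.15, did not pass. Igkv8-28 had 1.03 ± 0.66 (edgeR adjusted p = 0.212), with 12.4 CPM in B-1-like cells of I-LC32 and 0.611 to 3.40 in the other 3. Kappa V gene UMIs in total were 137, 92.3, 57.9 and 70.7 CPM in naive B-like and 111, 65.5, 84.1 and 55.2 CPM in B-1-like cells. With V gene UMIs as the library size 3 were higher and 9 lower. The adjustment again ran over all genes on that scale, and the share of all genes called was not counted.

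**Figure D4:**
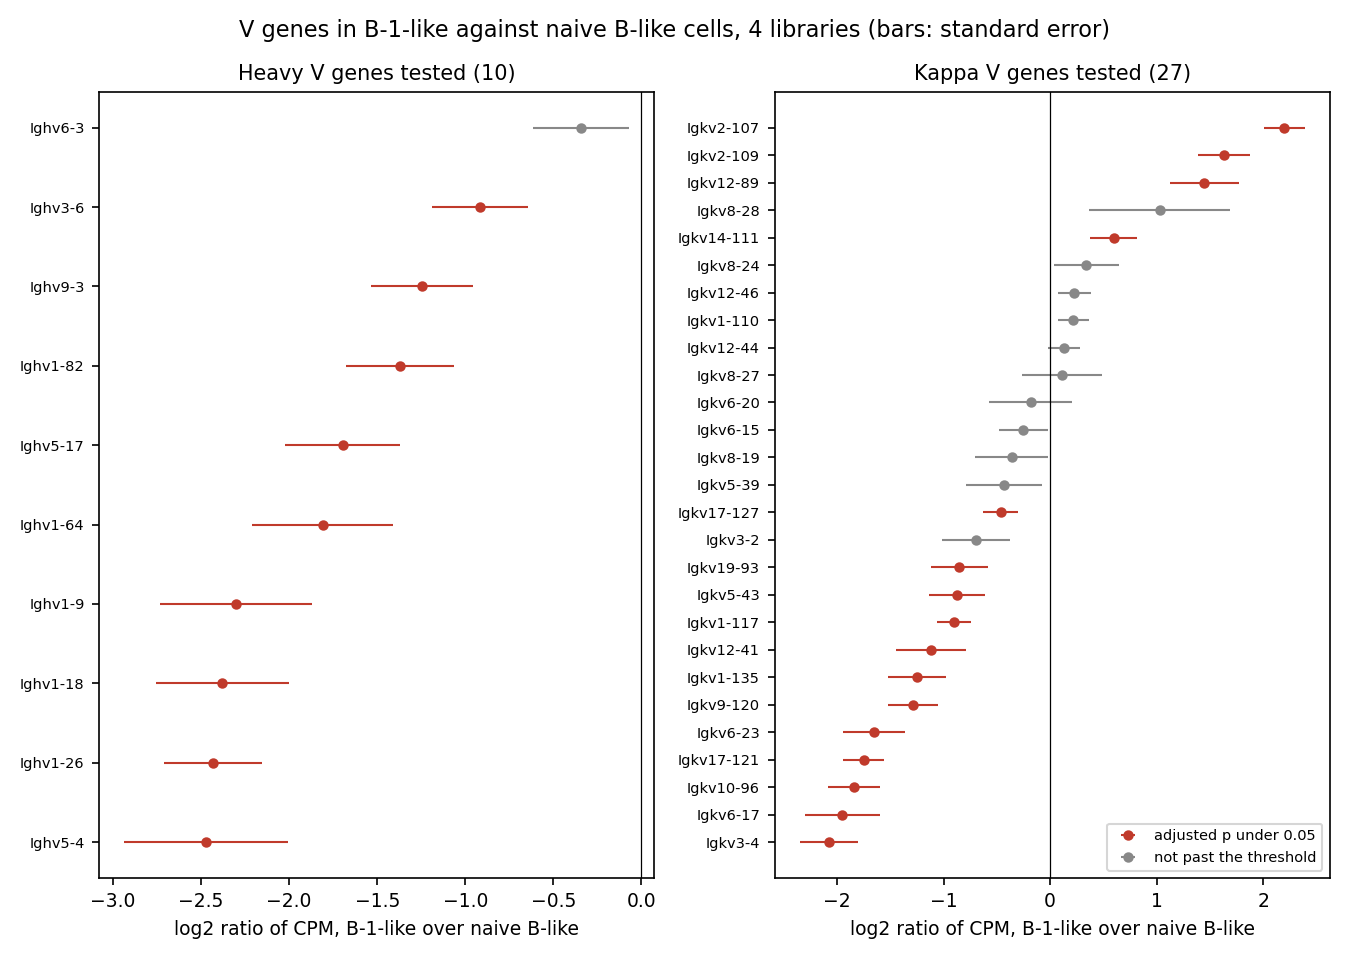
The horizontal axis gives the log2 ratio of CPM in B-1-like over naive B-like cells for the 10 heavy (left) and 27 kappa (right) V genes tested. Bars give the standard error derived from the edgeR F statistic of the fit to 4 libraries, and red marks an adjusted p under 0.05. All heavy values lie below 0, and Igkv2-107 and Igkv2-109 lie furthest to the right.

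The genes that cut, join and transcribe V segments were read beside them. Rag1 and Rag2, the recombinase, had at most 7 UMIs in a library and type, as did Dntt, the polymerase that adds bases at the joins, and none was tested. Among the octamer-binding factors and their coactivator, Pou2f2 was higher at 0.79 ± 0.05 and Pou2f1 and Pou2af1 were lower at −0.26 ± 0.07 and −0.39 ± 0.04. Of the end-joining genes, Xrcc5 was higher at 0.22 ± 0.08 (edgeR adjusted p = 0.0391), and Xrcc6 and Lig4 did not pass the threshold.

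The constant regions gave the setting in which the V genes were read. Ighm was higher in B-1-like cells at 1.00 ± 0.05 and Ighd, the other isotype of unswitched cells, lower at −2.19 ± 0.09. Igkc had −0.04 ± 0.07 (edgeR adjusted p = 0.673), Iglc3 had 0.11 ± 0.09 and Iglv3 had −0.22 ± 0.18, none past the threshold. Iglc1, Iglc2, Iglv1 and Iglv2 were higher at 1.48 ± 0.43, 0.72 ± 0.07, 1.08 ± 0.32 and 1.60 ± 0.39. Iglc1 had 643, 503, 4187 and 448 CPM in B-1-like cells, highest in I-LC32, against 289 to 376 in naive B-like cells. Iglv1 had 4.09 CPM in B-1-like and 4.24 in naive B-like cells of I-HC32, where it was not higher. The switched isotypes Ighg3 and Ighg2b were higher at 2.47 ± 0.21 and 2.46 ± 0.70, but 2752 of the 2819 Ighg2b UMIs in B-1-like cells of I-LC32 came from 1 cell. Igha had 0.20 ± 1.19, with 2185 of 2276 UMIs in naive B-like cells of I-LC32 and 1086 of 1276 in B-1-like cells of P-HC24 from 1 cell each. Ighg1, Ighg2c and Ighe did not pass the filter.

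V gene promoters are known for the octamer, a site of POU factors. The letters ATGCAAAT or their reverse complement ATTTGCAT stood within 250 bases before the start of 177 of the 254 members, or 69.7%, against 2.04% of 78289 windows of the same length before all annotated genes. The share was 77.2% for heavy and 62.6% for kappa members. Among functional members, 84 heavy genes held the forward letters and 0 the reverse, whereas 2 kappa genes held the forward and 66 the reverse. Among the 8 genes described most closely, Ighv3-6, Ighv8-5, Igkv2-109 and Igkv2-107 had the octamer in this window and Ighv1-26, Igkv1-117, Igkv6-29 and Igkv8-28 did not. The windows of Ighv8-5 and of the pseudogene Igkv2-107, which gave 580 UMIs in Cd79a cells, are shown with the octamer in capitals, 78 and 104 bases before the gene start, on GRCm39.
Ighv8-5, chr12:115031677-115031716, minus strand: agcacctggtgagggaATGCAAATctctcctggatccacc
Igkv2-107, chr6:68302962-68303001, plus strand: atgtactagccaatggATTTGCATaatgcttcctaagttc

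Between diets, V genes with at least 50 UMIs over both libraries were set side by side, with at least 2-fold counted as a description of the libraries. The limit keeps a gene that is high in 1 library alone, and such a gene can only be counted as higher there. All genes of the background had the same limit. In naive B-like cells of Prog, none of 25 was higher in P-HC24 and 6 were lower, against a background of 1.02% of all genes higher and 2.55% lower. Igkv6-20 had the lowest log2 ratio, −1.59 (−2.39 to −0.85, exact Poisson 95% interval, counting error only), with 59 UMIs on low and 21 on high cholesterol. Igkv1-110 had the highest, 0.43 (0.02 to 0.86), with 82 UMIs on low and 119 on high cholesterol. Of the heavy genes, Ighv3-6 was lowest at −1.28 (−2.14 to −0.47) and Ighv1-64 highest at −0.15. As shares of all V gene UMIs of the chain, the median of the 25 was 0.02, compared with −0.64 in CPM.

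In naive B-like cells of Int, none of 14 was past 2-fold in either direction, with 1.49% of all genes higher and 0.647% lower. Igkv12-44 was highest at 0.91 (0.30 to 1.54), with 65 UMIs in I-HC32 and 36 in I-LC32. Igkv5-39 was lowest at −0.95 (−1.82 to −0.12), but 24 of its 38 UMIs in I-LC32 came from 1 cell. Of the heavy genes, Ighv9-3 was lowest at −0.90 (−1.84 to −0.02), with 14 of 33 UMIs in I-LC32 from 1 cell, and Ighv3-6 highest at 0.11.

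In B-1-like cells of Prog, none of 14 was higher in P-HC24 and 4 were lower, with 0.735% of all genes higher and 2.47% lower. Igkv3-7 was lowest at −3.74 (−4.89 to −2.74), with 10 UMIs in 7 cells of P-HC24 and 48 in 6 cells of P-LC24, of which 35 came from 1 cell. Counted by cells, its ratio was −1.15. Ighv1-47, the only heavy gene with enough UMIs, had −1.43 (−2.21 to −0.64), and Igkv1-110 was highest at −0.01 (−0.48 to 0.47). As shares of V gene UMIs, 2 of the 14 were lower.

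In B-1-like cells of Int, 3 of 17 were at least 2-fold up and 4 down in I-HC32, with 1.41% of all genes higher and 1.91% lower. Ighv8-5, with 2 UMIs in I-HC32 and 169 in I-LC32, had −7.0005 (−10.06 to −5.13). Igkv6-29 had 16 and 460 UMIs, or −5.45 (−6.26 to −4.73), and Igkv8-28 had 34 and 287, or −3.68 (−4.24 to −3.16). Igkv2-109 had −1.29 (−1.58 to −1.01). No cell held more than 15 of the 460 or 3 of the 169 UMIs in I-LC32. Igkv12-89 was highest at 2.47 (1.63 to 3.42), with 109 UMIs in 75 cells of I-HC32 and 13 in 10 cells of I-LC32, and Igkv8-19 and Igkv1-117 followed at 2.03 and 1.05. As shares of kappa V gene UMIs these 3 were at 3.07, 2.63 and 1.66.

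**Figure D5:**
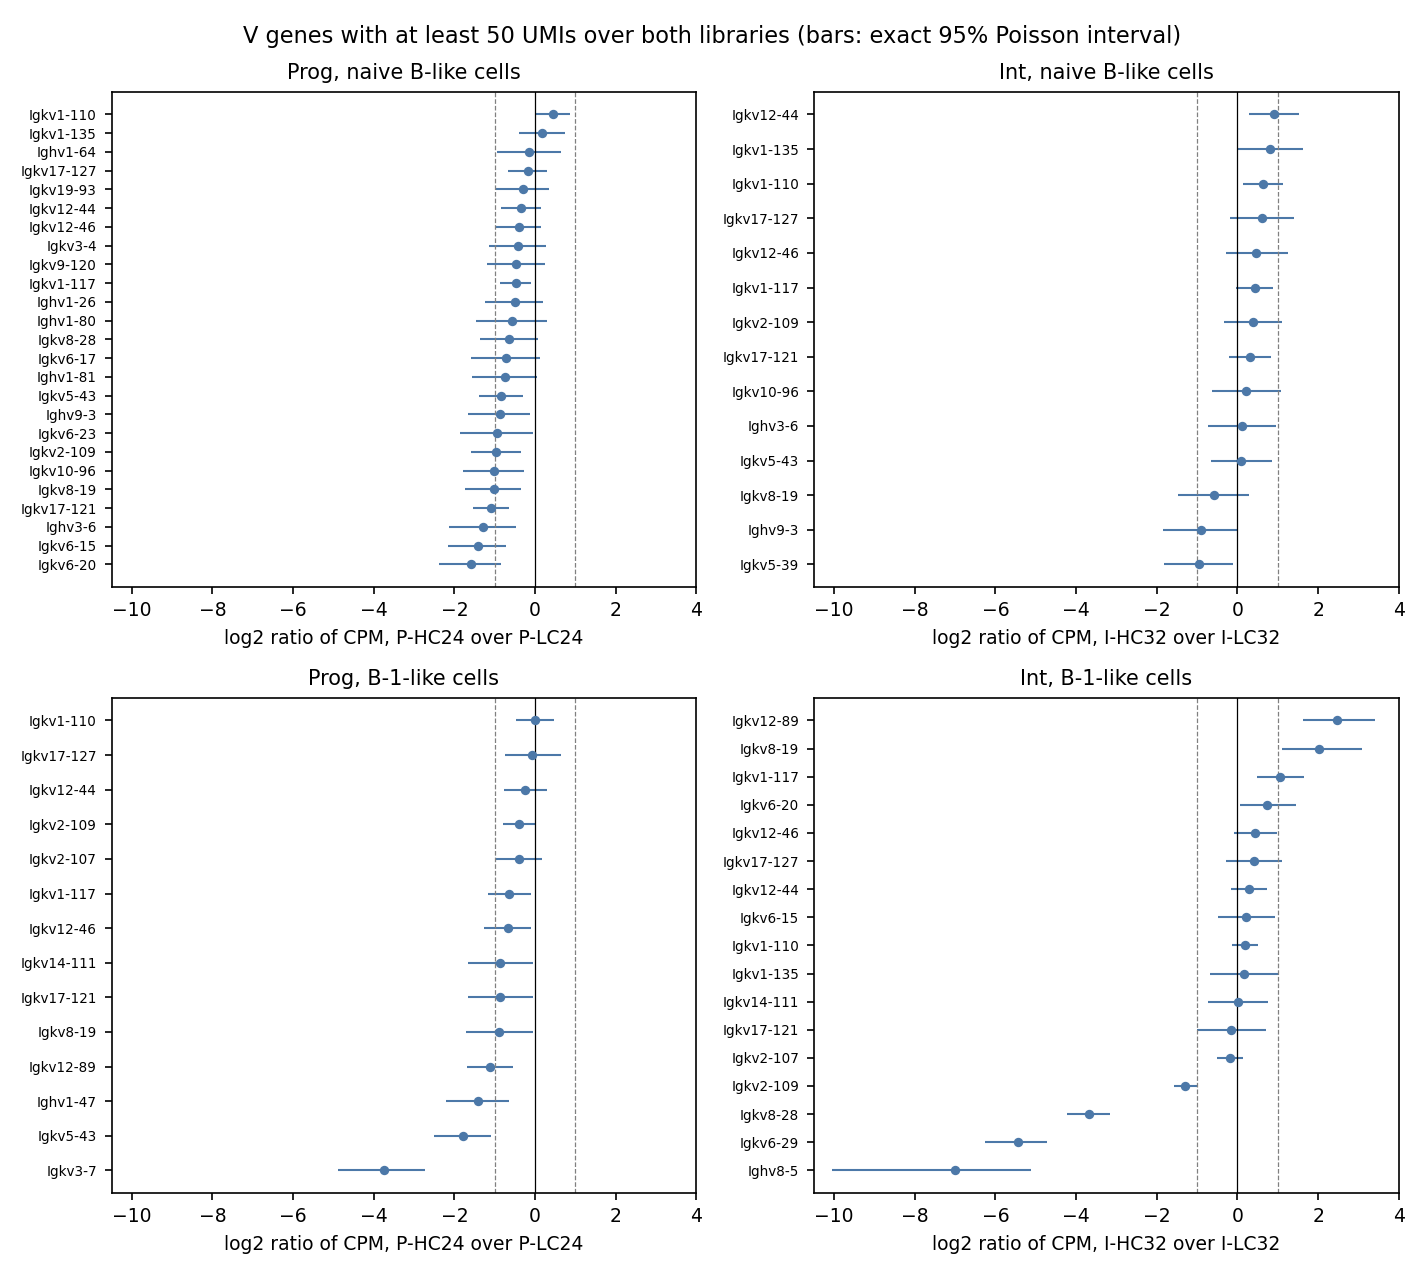
Each panel gives the log2 ratio of CPM between diets on the horizontal axis for V genes with at least 50 UMIs, with bars for exact 95% Poisson intervals that cover counting error only and dashed lines at 2-fold. Ighv8-5 at −7.0005, Igkv6-29 at −5.45 and Igkv8-28 at −3.68 stand apart in B-1-like cells of Int.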

How the data were processed

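Single-cell RNA was measured with a 10x 3′ kit in 4 libraries, 1 per condition. The authors deposited raw counts of UMIs per gene and barcode, and the submitters' processing notes name Cell Ranger 9.0.1, Seurat 5.3 and GRCm39. Cells with at least 500 UMIs, at least 300 genes and at most 10% mitochondrial UMIs were kept, and doublets were removed by Scrublet score. Cells were clustered without immunoglobulin genes (Seurat 5.3.0, sctransform 0.4.2, R 4.3.3). Each cell was given to the V gene with the most UMIs, and ties were left out. Types were compared by edgeR 4.0.16 on sums per library and type, with TMM scaling, library as a term and Benjamini-Hochberg adjustment at 0.05. The SE of each log2 ratio between types was derived from the quasi-likelihood F statistic and is not the spread of the ratios of the libraries. Between diets there was no test. Ratios carry exact Poisson intervals and shares exact Clopper-Pearson ones, which cover counting error only, and a share of 0 allows up to 3 counts. V genes named were the 5 of each chain with the highest mean share per type, the 5 highest and 5 lowest ratios of each chain past the threshold between types, the highest and lowest ratio of each chain between diets among genes with at least 50 UMIs, the 5 most frequent pairs per type and the leading heavy gene of lambda cells with and without Mcc. Other V genes, such as Igkv8-28, were named after their values were seen. The members, the lists and the split by Mcc were chosen with earlier results of these data known. On simulated data for the type comparison, run on 12944 genes, 85.4% of 2-fold and 100% of 4-fold changes were called, and 0.151% of unchanged genes. Unchanged genes made up 9.5% of all calls there, above the nominal 5%, so calls close to the threshold are less certain. Signals, octamers and shared words were read from the GRCm39 reference. Python 3.11.15, scipy 1.17.1 and matplotlib 3.10.9 were used. Alternatives were other filters, scalings, clusterings, V gene calls and leaving out each library. The result for 1 listed gene is not reported here.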

Additional observations from a re-analysis of the deposited data

Results flagged for a closer look

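In B-1-like cells, 11 V genes had at least 50 UMIs in both Prog and Int, and 8 of them were lower in Prog and higher in Int. This direction was thus common among them and not particular to the 3 kappa V genes given here. For these 3 the intervals, which cover counting error only, excluded 0 in both comparisons. The share of all genes that moved this way was not counted. The difference between Prog and Int was not tested, as each condition had 1 library. Igkv12-89 had a log2 ratio of −1.12 in Prog and 2.47 in Int, 3.59 apart. Igkv8-19 had −0.89 and 2.03, 2.92 apart. Igkv1-117 had −0.65 and 1.05, 1.70 apart. As shares of kappa V gene UMIs the Prog values were −0.35, −0.13 and 0.12 and the Int values 3.07, 2.63 and 1.66, so Igkv1-117 was then above 0 in both.

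Barcodes removed as doublets, which entered no comparison, held V gene UMIs as well. In I-LC32, Ighv8-5 made up 20.5% of their heavy V gene UMIs (18 of 88) and Igkv6-29 made up 15.6% of their kappa V gene UMIs (54 of 346). The doublets of P-LC24, P-HC24 and I-HC32 held 0, 2 and 1 UMIs of Ighv8-5 and 0, 1 and 2 of Igkv6-29.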

How the results depend on the processing

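Between conditions, no paired analysis was possible because each condition had 1 library and the labels give no replicate numbers. The types were paired by library. With at least 2 UMIs per call, the effective number was 50.3 and 24.1 for heavy genes of naive B-like cells in P-LC24 and I-HC32, 29.2, 28.2 and 8.17 for heavy genes of B-1-like cells in P-LC24, P-HC24 and I-LC32, 27.3, 20.3, 18.4 and 19.3 for kappa genes of naive B-like cells in library order, and 5.07 and 17.1 for kappa genes of B-1-like cells in I-LC32 and I-HC32. In I-LC32 the shares of Ighv8-5 and Igkv6-29 were then 33.3% and 38.2%, and 38.2% and 23.7% by UMIs. With the 4 genes kept in, the heavy numbers of B-1-like cells were 8.40, 13.6 and 10.6 and the kappa ones 13.1, 13.8 and 13.7 in P-LC24, P-HC24 and I-HC32, and Ighv8-5 held 34.2%. A mitochondrial limit of 5% gave 64.5 for heavy genes in P-HC24 and 29.2 and 24.1 for kappa genes in P-HC24 and I-HC32 (B-1-like), and clustering at resolution 0.8 gave 4.10 for heavy genes in I-LC32. In kappa cells of I-LC32, Ighv8-5 held 0% and Igkv6-29 2.28%, with 37.1 heavy and 19.97 kappa genes. Leaving out lambda cells with Mcc, chosen after seeing the data, gave 40.2 and 18.7. With at least 2 UMIs of each chain the leading pair of I-LC32 held 45.5%.

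Between types, no filter gave 2 of 116 heavy genes higher and 26 lower, and 9 of 128 kappa genes higher and 20 lower. The share of all genes called was counted at the main setting alone. No library term gave 2 of 27 kappa genes higher and 6 lower. V gene UMIs as the library size, adjusted over all genes on that scale, gave 1 heavy gene higher and 5 lower and turned Ighv3-6 to 0.058. The 5% limit gave 1 of 3 heavy and 4 of 20 kappa genes lower. Without 1 library, 0 to 1 heavy genes were higher, the 1 being Ighv1-47 without I-LC32 (1.83) or I-HC32 (1.76). The counts between diets that follow have no share of all genes beside them, and the number of members compared varied with the UMI limit. They show how far the counts depend on the setting and nothing more. Between diets, Prog naive B-like genes lower were 21 at 20 UMIs, 1 at 100, 13 at 1.5-fold, 1 by share (with 1 higher) and 3 by cells. Int naive B-like genes were 1 higher and 1 lower at 20 UMIs, 4 and 2 at 1.5-fold, 1 lower by share and 1 higher by cells. Prog B-1-like genes lower were 13, 1, 9, 2 and 1 under the same 5 settings. Int B-1-like genes were 9 higher and 7 lower at 20 UMIs, and 6 higher by share. Beyond changes in the genes counted, the cause was not tested. Of 271 alternative values for 19 genes named between types, 237 kept their call, 33 missed the threshold and 1 turned. Most V gene calls rested on 1 UMI per cell, which limits every share.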
